A study of Mus musculus with 7 samples.

Results

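The Slc25 family of mitochondrial carriers was examined in kidneys of MRL/lpr mice, which lack working Fas and come down with lupus-like nephritis without any trigger. Members were taken by name, as the protein-coding genes whose symbols start with Slc25a together with Ucp2 and Ucp3, which gave 49 of the 53465 genes in the count table. All 7 mice were MRL/lpr. 4 had received AZD1152 (barasertib), a prodrug of an Aurora kinase B inhibitor, and 3 had received vehicle. Each mouse gave 1 poly(A)-selected library of whole kidney tissue, and no dose, schedule, age or sex is stated in the labels used here. The comparison asked how transcript levels differed in treated kidneys, and no metabolite flux or protein was measured.

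Mitochondrial carriers are small proteins of the inner mitochondrial membrane that exchange nucleotides, phosphate, keto acids, amino acids, acylcarnitines and cofactors between cytosol and matrix. The kidney, and its proximal tubule above all, relies on mitochondrial ATP for reabsorption and uses these carriers in ATP export, fatty acid oxidation, gluconeogenesis and ammonia production. A few members depart from the rule, such as Slc25a17 of the peroxisome and Slc25a46 of the outer mitochondrial membrane.

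Library totals ran from 14692113 to 17036862 counts, and the family took 0.592% to 0.602% of all counts with AZD1152 and 0.554% to 0.588% with vehicle. Levels are given as CPM, counts relative to a library size scaled with TMM, which sets libraries to a common level for the bulk of genes. The TMM factors were 0.921 to 0.972 with AZD1152 and 1.036 to 1.113 with vehicle, without overlap. Scaling thus raised every CPM of the treated kidneys, and lowered those of the vehicle kidneys, relative to counts per library total. All 18 proximal tubule markers passed the filter on low counts. Their summed level was 21695 to 26624 CPM in AZD1152 kidneys and 14415 to 18147 CPM in vehicle kidneys, and 7 of the 18 were higher. The marker counts are calls at an edgeR adjusted p under 0.05. Of all genes tested 3.18% were called higher and 4.69% lower. Macrophage markers summed to 535 to 826 CPM with AZD1152 and 1183 to 1606 CPM with vehicle, with 9 of 12 lower and none at 0. T cell markers summed to 49.7 to 77.7 CPM with AZD1152 and 104 to 166 CPM with vehicle, with 7 of 12 lower and none at 0. The 10 markers of proliferating cells had 7 lower members. Without single libraries these counts were 0 to 6 for proximal tubule, 2 to 9 for macrophages, 2 to 8 for T cells and 3 to 7 for proliferating cells. The fewest came without vehicle replicate 1 for proximal tubule and without vehicle replicate 3 for the other lists. Collecting duct markers summed to 923 to 1072 CPM with AZD1152 and 802 to 872 CPM with vehicle, with 4 of 11 higher (0 without vehicle replicate 1 or 3). Of 6 genes listed as distal convoluted tubule markers (Slc12a3, Pvalb, Trpm6, Trpm7, Wnk1 and Calb1) 1 was higher. Their sums were 2019.9 to 2673 CPM with AZD1152 and 1666 to 2250 CPM with vehicle, and how far they are specific to that segment was not tested. Among 7 loop of Henle, 6 podocyte and 8 endothelial markers 0 were called in edgeR, with median log2 fold changes of -0.09, 0.12 and -0.04. Loop of Henle markers summed to 4597 to 7733 CPM with AZD1152 and 5555 to 7197 CPM with vehicle. Among 10 B and plasma cell markers and 6 neutrophil markers 0 were called in edgeR. At an unadjusted p under 0.05, 3 and 2 were lower (12.8% of all genes), and DESeq2 called 2 and 1 lower (7.33% of all genes). In tissue RNA, fewer cells of a type and less RNA per cell cannot be told apart.

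In the treated kidneys 3 carriers rose, namely Slc25a13, Slc25a3 and Slc25a21, and none fell by the test. Of the 49 members 43 passed the filter on low counts. The 3 calls were 6.98% of the 43, where 3.18% of all 15774 genes tested were called higher at a Benjamini-Hochberg adjusted p under 0.05 (edgeR quasi-likelihood test) and 7.87% were called in either direction. For lower calls the count was 0 of 43 in edgeR, against 4.69% of all genes; 2 members, Slc25a24 and Ucp2, were lower at an unadjusted p under 0.05, and DESeq2 called these same 2 (7.33% of all genes). DESeq2 called 5 carriers higher (6.14% of all genes), adding Slc25a23 and Slc25a42 to the 3. Estimates were above 0 for 34 of the 43, with a median log2 fold change of 0.17, while 49.9% of all genes tested were above 0 with a median of 0. The smallest estimate was -0.78 and the largest 0.87, and 25 of 43 lay within 0.25 of 0.

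These counts depended on single libraries and on scaling. No member was called without AZD1152 replicate 4 or vehicle replicate 3, and Slc25a13 alone was called without AZD1152 replicate 1, AZD1152 replicate 2 or vehicle replicate 1. Scaling by total counts moved the median of all genes to -0.15 and that of the members to 0.02, left 22 of 43 estimates above 0 and called Slc25a13 alone, and with it 14.2% of all calls were higher in place of 40.4%.

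**Figure D1:**
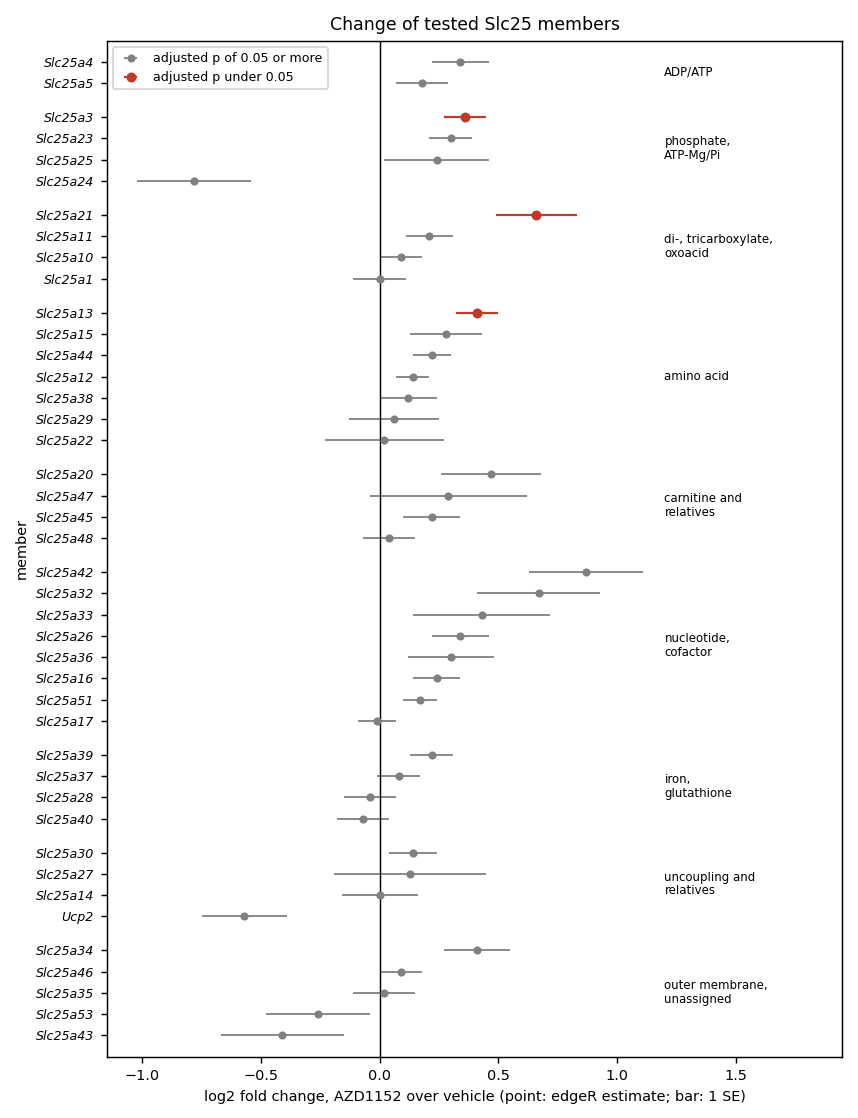
Log2 fold change (x axis, AZD1152 over vehicle) of tested carriers (y axis), grouped by role; points are edgeR estimates, bars 1 standard error, and red marks an adjusted p under 0.05. Slc25a13, Slc25a3 and Slc25a21 are marked at 0.41, 0.36 and 0.66, and Slc25a24 and Ucp2 lie lowest at -0.78 and -0.57.

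The promoters of the 3 carriers that rose are shown to set their start regions side by side. Each window runs from 250 bases before to 50 after the RefSeq start (GRCm38.p6, 5′ to 3′ on the gene's strand), at chr6:6217124-6217423 (minus) for Slc25a13, chr12:57197423-57197722 (minus) for Slc25a21 and chr10:91123918-91124217 (minus) for Slc25a3. Capitals mark matches to any of 5 motifs searched on both strands.
Slc25a13: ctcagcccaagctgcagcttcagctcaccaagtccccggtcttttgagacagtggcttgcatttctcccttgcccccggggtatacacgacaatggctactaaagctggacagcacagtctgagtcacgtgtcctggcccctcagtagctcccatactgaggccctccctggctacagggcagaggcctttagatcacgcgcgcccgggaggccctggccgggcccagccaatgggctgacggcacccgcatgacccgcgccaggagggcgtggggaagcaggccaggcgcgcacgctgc
Slc25a21: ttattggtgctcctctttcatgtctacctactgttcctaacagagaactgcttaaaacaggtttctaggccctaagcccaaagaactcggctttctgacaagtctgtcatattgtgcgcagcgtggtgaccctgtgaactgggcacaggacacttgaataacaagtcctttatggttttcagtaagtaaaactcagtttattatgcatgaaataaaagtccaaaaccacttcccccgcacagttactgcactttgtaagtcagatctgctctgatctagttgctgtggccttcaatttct
Slc25a3: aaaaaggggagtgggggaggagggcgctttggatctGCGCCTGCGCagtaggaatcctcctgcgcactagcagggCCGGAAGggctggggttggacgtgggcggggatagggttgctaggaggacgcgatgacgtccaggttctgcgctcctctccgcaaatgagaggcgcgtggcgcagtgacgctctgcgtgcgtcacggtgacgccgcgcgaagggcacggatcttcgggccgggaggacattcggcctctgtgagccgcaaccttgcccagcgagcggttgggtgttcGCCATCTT

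The 3 windows differed in base composition. That of Slc25a3 held 31 CpG, an observed over expected ratio of 1.01, that of Slc25a13 held 17 (ratio 0.54) and that of Slc25a21 held 4 (ratio 0.29). Among the 38 members with a RefSeq window the median ratio was 0.64, against 0.38 over all 32817 windows of the same length. The sets are unlike: each member gave 1 window, the nearest to its annotated start, while the 32817 hold every distinct RefSeq window. The ratios and the motif shares below are therefore not a like comparison. The Slc25a3 window held 1 match each to the NRF1 motif (GCGC, any base, TGCGC), to CCGGAAG (ETS factors) and, at its end on the other strand, to AANATGGC (YY1), which did not overlap. These motifs occurred in 4.59%, 8.86% and 6.04% of all windows, and in 2, 7 and 2 of the 38 member windows. The motif TNAAGGTCA (estrogen-related receptors) was in 1.28% of all windows and in 0 member windows, and TGACGTCA (CRE) was in 1.79% and in 1, that of Slc25a36. The windows of Slc25a13 and Slc25a21 held none of the 5 motifs, which says only that these letters are not in these 300 bases.

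Levels of different carriers were compared per kilobase of annotated exon. Slc25a5 was the most abundant at 763 CPM per kilobase with AZD1152 and 672 with vehicle, followed by Slc25a39 (184 and 157), Slc25a3 (182 and 141), Slc25a4 (165 and 131) and Slc25a10 (94.5 and 89.0). Slc25a39, Slc25a3 and Slc25a4 lay close together in this order, and their libraries overlapped within each group. The order depends on the lengths, which merge all annotated exons of a gene (5550 bases for Slc25a3 and 2756 for Slc25a39). In CPM without length, Slc25a3 (means of 1008 with AZD1152 and 784 with vehicle) lay above Slc25a39 (507 and 434). The first 7 places were held by the same genes in both groups. Over the 49 members, 23 had a mean above 10 CPM per kilobase, 15 lay between 1 and 10, and 11 were below 1. Summed over the family, the level was 1969.9, 2094, 2006 and 2051 CPM per kilobase in the AZD1152 kidneys, against 1803, 1894 and 1584 in the vehicle kidneys. The lowest treated kidney thus lay above the highest vehicle kidney, and vehicle replicate 3 was the lowest of all. This separation depended on TMM. Per unscaled library total, the same sum in vehicle replicate 2 lay above those in AZD1152 replicates 1, 2 and 3.

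**Figure D2:**
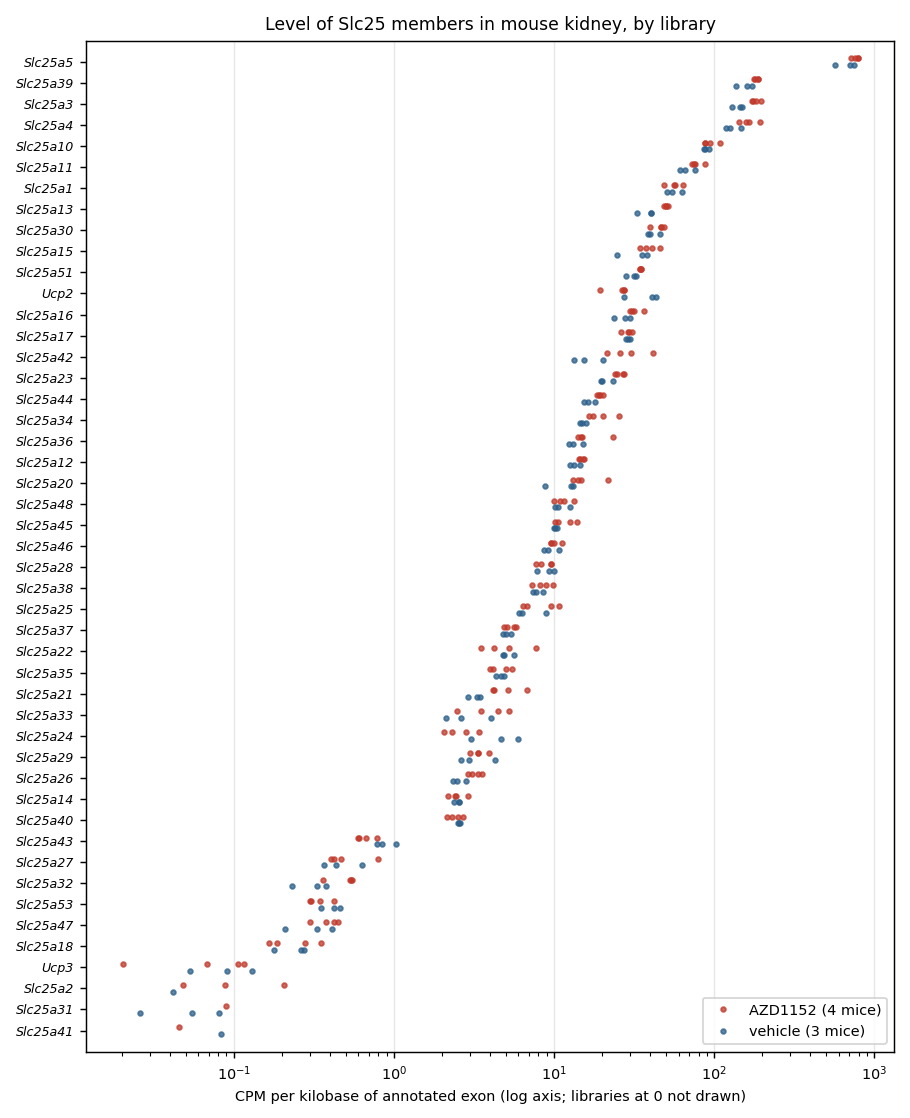
Level of carriers in each library, as CPM per kilobase of annotated exon on a log axis, with AZD1152 libraries in red above vehicle libraries in blue and genes ordered by mean level. Slc25a5 stands apart at the top, and Slc25a54, with 0 counts, is not drawn.

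Among the ADP/ATP carriers, which export ATP from the matrix, neither measured member passed the test. Slc25a5 (ANT2; chrX:36795651-36798807, plus strand) had 1178, 1247, 1299 and 1298 CPM in AZD1152 kidneys, against 1157, 1229 and 933 CPM in vehicle kidneys. The groups overlapped, and vehicle replicate 3 stood well below the other 6 (log2 fold change 0.18 ± 0.11, SE; edgeR adjusted p = 0.342). The estimate was 0.07 without that library, 0.27 without vehicle replicate 2 and 0.04 with total-count scaling. Slc25a4 (ANT1; chr8:46206797-46211284, minus strand), the main isoform of heart and muscle, had 339, 453, 375 and 389.8 CPM with AZD1152 and 295, 347 and 279.5 CPM with vehicle. AZD1152 replicate 1 lay below vehicle replicate 2, and the log2 fold change was 0.34 ± 0.12 (edgeR adjusted p = 0.104). The ratio of Slc25a4 to Slc25a5 per kilobase, on the log2 scale, averaged -2.21 ± 0.16 with AZD1152 (SD, n = 4) and -2.36 ± 0.12 with vehicle (SD, n = 3), a difference of 0.15 ± 0.1 (SE; two-sided exact permutation p = 0.314, 0.377 adjusted over 6 pairs). Slc25a31 (ANT4), a carrier of male germ cells, had at most 3 counts in any library. Slc25a5 has near-identical processed copies in the genome, so its count depends on how shared reads were assigned.

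Slc25a3, the phosphate carrier that supplies the matrix with phosphate for ATP synthesis and also carries copper, rose. It lies on chromosome 10 (GRCm38, 91116574 to 91124059, minus strand) and had 978, 1086, 955 and 1014 CPM in AZD1152 kidneys, against 802, 835 and 715 CPM in vehicle kidneys. The groups did not overlap, and the log2 fold change was 0.36 ± 0.09 (SE; edgeR adjusted p = 0.0429). Leaving out any single library other than vehicle replicate 2 ended the call (edgeR adjusted p at most 0.115), as did total-count scaling (0.21; 0.0678).

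The ATP-Mg/phosphate carriers adjust the adenine nucleotide pool of the matrix in response to calcium, and their estimates ran in both directions. Slc25a23 (chr17:57043711-57059863, minus strand) had 132, 143, 127 and 145 CPM with AZD1152, against 106, 124 and 104 CPM with vehicle. Its groups did not overlap (log2 fold change 0.30 ± 0.09, edgeR adjusted p = 0.0649). Slc25a24 (chr3:109123149-109168457, plus strand) had 9.67, 7.10, 11.6 and 7.93 CPM with AZD1152, against 15.9, 10.4 and 20.5 CPM with vehicle. AZD1152 replicate 3 lay above vehicle replicate 2, and the log2 fold change was -0.78 ± 0.24 (edgeR adjusted p = 0.0835). Leaving out vehicle replicate 2 gave -1.0 (edgeR adjusted p = 0.0251), and DESeq2 gave an adjusted p of 0.0234. The log2 ratio of Slc25a23 to Slc25a24 averaged 3.31 ± 0.4 with AZD1152 (SD, n = 4) and 2.26 ± 0.63 with vehicle (SD, n = 3), a difference of 1.05 ± 0.41 (SE; exact permutation p = 0.0857, 0.229 adjusted over the 6 pairs). Slc25a25 had 50.1 to 84.3 CPM with AZD1152 and 47.3 to 70.5 CPM with vehicle. Macrophage and T cell markers moved in the direction of Slc25a24, with the sums given above, and their part in its value was not tested.

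In the group of dicarboxylate, tricarboxylate and oxoacid carriers 1 of 4 members rose. Slc25a21, the oxodicarboxylate carrier that brings 2-oxoadipate from lysine and tryptophan breakdown into the matrix, lies on chromosome 12 (56712634 to 57197472, minus strand). It had 25.2, 32.9, 20.5 and 20.4 CPM in AZD1152 kidneys, against 16.1, 16.9 and 14.1 CPM in vehicle kidneys. The groups did not overlap, AZD1152 replicate 2 was the highest, and the log2 fold change was 0.66 ± 0.17 (SE; edgeR adjusted p = 0.0489). The call was lost without each single library except AZD1152 replicate 3 (edgeR adjusted p up to 0.19), with total-count scaling (0.0721), with TMM factors taken without mitochondrial, immunoglobulin and the 50 most abundant genes (0.0504), with a stricter filter (0.0516), in a fit that was not robust (0.0548) and in limma-voom (0.0598). It shares 189 exonic bases with Pax9 on the other strand, which had 5 to 19 counts per library.

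The other members of that group did not pass. Slc25a10 (chr11:120491840-120499187, plus strand), the dicarboxylate carrier, which exchanges malate and succinate for phosphate, had 303, 376, 302 and 324 CPM with AZD1152 and 303, 322 and 297 CPM with vehicle (log2 fold change 0.09 ± 0.09, edgeR adjusted p = 0.632; -0.07 with total-count scaling). Slc25a11 (chr11:70644196-70647479, minus strand), the oxoglutarate carrier, which exchanges malate for 2-oxoglutarate in the malate-aspartate shuttle, had 158, 187, 154 and 161 CPM with AZD1152 and 139, 161 and 130.1 CPM with vehicle (0.21 ± 0.10, edgeR adjusted p = 0.238). The groups of Slc25a10 and of Slc25a11 overlapped. Slc25a11 shares 189 exonic bases with Rnf167 on the other strand, which had 847 to 1030 counts per library. Slc25a1, the citrate carrier, had 105 to 139 CPM with AZD1152 and 110 to 137 CPM with vehicle.

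Of the 7 amino acid carriers tested 1 rose, and all 7 estimates were above 0 (0.02 to 0.41), of which 3 stayed above 0 with total-count scaling. Slc25a13 (citrin), the liver-type aspartate/glutamate carrier of the malate-aspartate shuttle, lies on chromosome 6 (6041218 to 6217173, minus strand). It had 197, 191, 191 and 186 CPM in AZD1152 kidneys, against 153, 153 and 125 CPM in vehicle kidneys. The treated kidneys were close together and well above the vehicle kidneys (log2 fold change 0.41 ± 0.09, SE; edgeR adjusted p = 0.023). The call was lost without AZD1152 replicate 4 (edgeR adjusted p = 0.0559) or vehicle replicate 3 (0.0615). With total-count scaling the estimate was 0.27 (0.0423).

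Its paralogue Slc25a12 (aralar; chr2:71271063-71367749, minus strand), the isoform of brain and muscle, had 107, 105, 111 and 113 CPM with AZD1152 and 98.0, 106 and 92.1 CPM with vehicle. The groups overlapped (log2 fold change 0.14 ± 0.07, edgeR adjusted p = 0.267). The log2 ratio of Slc25a12 to Slc25a13 per kilobase was -1.84, -1.82, -1.74 and -1.68 in AZD1152 kidneys, against -1.60, -1.48 and -1.40 in vehicle kidneys. This balance, which does not depend on scaling, was lower in every treated kidney than in any vehicle kidney. The difference was -0.28 ± 0.07 (SE), with a two-sided exact permutation p of 0.0286, the smallest that 35 arrangements allow. After adjustment over the 6 pairs it was 0.171. A lone pair at the smallest p gets this adjusted value whatever the size of its difference, so the adjusted test could not call it.

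The remaining amino acid carriers were not called. Slc25a44 (chr3:88410498-88425139, minus strand), a carrier of branched-chain amino acids, had 69.8, 68.6, 66.3 and 72.3 CPM with AZD1152, against 58.6, 64.4 and 54.9 CPM with vehicle. Its groups did not overlap (log2 fold change 0.22 ± 0.08, edgeR adjusted p = 0.10). Slc25a15, the ornithine carrier, had 195 to 258 CPM with AZD1152 and 139.8 to 214 CPM with vehicle. Slc25a22, a glutamate carrier, had 46.0, 21.1, 25.4 and 31.4 CPM with AZD1152 and 29.4, 28.6 and 33.7 CPM with vehicle, with AZD1152 replicate 1 highest and replicate 2 lowest of all 7. Slc25a38, which carries glycine for haem synthesis, and Slc25a29, a carrier of basic amino acids, had estimates of 0.12 and 0.06. Slc25a18, the second glutamate carrier, had 5 to 11 counts per library, and Slc25a2, the second ornithine carrier, at most 4; neither was tested.

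No member passed among the carnitine carrier and its relatives. Slc25a20, which brings acylcarnitines to fatty acid oxidation in exchange for carnitine, lies on chromosome 9 (108662088 to 108684641, plus strand) and had 106, 68.7, 63.4 and 71.2 CPM in AZD1152 kidneys, against 61.5, 42.3 and 63.3 CPM in vehicle kidneys. The groups were separated by little, AZD1152 replicate 1 was the highest, and the log2 fold change was 0.47 ± 0.21 (SE; edgeR adjusted p = 0.226). It was 0.28 without AZD1152 replicate 1 and 0.31 without vehicle replicate 2. Of its relatives in sequence, Slc25a45 had 28.2 to 38.6 CPM with AZD1152 and 27.7 to 28.7 CPM with vehicle, Slc25a48 had 33.9 to 44.9 CPM with AZD1152 and 34.1 to 42.4 CPM with vehicle, and Slc25a47 stayed under 1.4 CPM in every library. In the list of carnitine shuttle enzymes, 1 of 6 genes rose (median log2 fold change 0.27), where 3.18% of all genes tested were called higher. This was Slc22a5, the plasma membrane carnitine transporter, with 511, 448, 422 and 444 CPM with AZD1152 and 358, 304 and 249.6 CPM with vehicle (0.59 ± 0.13, edgeR adjusted p = 0.0248), a call lost without AZD1152 replicate 4 (0.062) or vehicle replicate 3 (0.0712). Cpt1a, the rate-limiting enzyme of mitochondrial fatty acid uptake, had 728, 584, 524 and 542 CPM with AZD1152 and 459, 426 and 449.7 CPM with vehicle (0.42 ± 0.12, edgeR adjusted p = 0.0615).

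The nucleotide and cofactor carriers held the highest estimate of the family, which did not pass. Slc25a42, which imports coenzyme A in exchange for adenine nucleotides, lies on chromosome 8 (70184340 to 70212305, minus strand). It had 248, 129, 156 and 180.3 CPM in AZD1152 kidneys, against 121, 80.3 and 92.5 CPM in vehicle kidneys. The groups did not overlap, but the treated kidneys were widely spread, with replicate 1 highest as for Slc25a20, Slc25a22 and Slc25a34. The log2 fold change was 0.87 ± 0.24 (SE; edgeR adjusted p = 0.0717), and DESeq2 (adjusted p = 0.00118) and limma-voom (0.0444) called it, as did an edgeR fit that was not robust (0.0473).

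Slc25a51 (chr4:45395923-45408766, minus strand), the mitochondrial NAD+ carrier, had 190.4, 194, 193 and 189 CPM with AZD1152 and 175, 179.5 and 156 CPM with vehicle (0.17 ± 0.07, edgeR adjusted p = 0.181). Slc25a16 (chr10:62920633-62946498, plus strand), linked to coenzyme A transport, had 151, 176, 148 and 144 CPM with AZD1152 and 134, 143 and 114 CPM with vehicle (0.24 ± 0.10, edgeR adjusted p = 0.172). The groups of both genes lay side by side without overlap. Slc25a26 (chr6:94500331-94604672, plus strand), the S-adenosylmethionine carrier, had 14.7, 17, 14 and 16.2 CPM with AZD1152 and 11.2, 13.6 and 11.9 CPM with vehicle (0.34 ± 0.12, edgeR adjusted p = 0.121), again without overlap. It shares 144 exonic bases with Lrig1 on the other strand, which had 328 to 549 counts. Slc25a32 (chr15:39091231-39112716, minus strand), a carrier of folate and FAD, had 3.26, 3.25, 3.32 and 2.19 CPM with AZD1152 and 1.40, 2.28 and 2.00 CPM with vehicle (0.67 ± 0.26, edgeR adjusted p = 0.147). Of the pyrimidine nucleotide carriers, Slc25a36 had 135, 223, 142 and 143 CPM with AZD1152 and 127, 145 and 119 CPM with vehicle, and Slc25a33 had 4.67 to 9.85 CPM with AZD1152 and 3.99 to 7.62 CPM with vehicle. The log2 ratio of Slc25a33 to Slc25a36 differed by 0.15 ± 0.41 (exact permutation p = 0.714), and it reversed without AZD1152 replicate 1 or vehicle replicate 2. Slc25a17, which serves the peroxisome, had a mean level of 82.3 CPM with AZD1152 and 82.6 CPM with vehicle.

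None of the 4 iron and glutathione carriers passed the test, and Slc25a39 was the only one whose groups did not overlap. Slc25a39 (chr11:102402985-102407946, minus strand) is needed for glutathione import and was second in mean level per kilobase. It had 521, 491, 496 and 518 CPM with AZD1152, against 443, 479 and 379.6 CPM with vehicle. All treated kidneys lay above the vehicle kidneys (log2 fold change 0.22 ± 0.09, edgeR adjusted p = 0.177). Its paralogue Slc25a40 had 17.9 to 22.8 CPM with AZD1152 and 21.2 to 21.6 CPM with vehicle. The log2 ratio of Slc25a39 to Slc25a40 averaged 6.25 ± 0.19 with AZD1152 (SD, n = 4) and 5.94 ± 0.19 with vehicle (SD, n = 3; exact permutation p = 0.114, 0.229 adjusted over the 6 pairs). The mitoferrins Slc25a37 and Slc25a28, which import iron, had 29.4 to 34.9 and 29.1 to 35.8 CPM with AZD1152, and 29.0 to 32.6 and 29.2 to 37.7 CPM with vehicle. Their log2 ratio differed by 0.12 ± 0.1 (exact permutation p = 0.257, 0.377 adjusted). Erythroid markers, which accompany Slc25a37 and Slc25a38 in red cell precursors, summed to 387 to 1309.7 CPM with AZD1152 and 345 to 645 CPM with vehicle, with 0 of 7 tested members called in edgeR.

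Among the uncoupling proteins and their nearest relatives, Ucp2 had the lowest estimate and the rest lay near 0. Ucp2, a carrier of C4 metabolites abundant in leukocytes, lies on chromosome 7 (100493337 to 100502020, plus strand). It had 192, 135, 185 and 190.2 CPM in AZD1152 kidneys, against 288, 191 and 302 CPM in vehicle kidneys. Vehicle replicate 2 lay with the treated kidneys, and the log2 fold change was -0.57 ± 0.18 (SE; edgeR adjusted p = 0.0902). Without vehicle replicate 2 it was -0.75 (edgeR adjusted p = 0.0203), and DESeq2 gave an adjusted p of 0.0185. Vehicle replicate 2 also had the lowest macrophage sum of the vehicle kidneys, 1183 CPM beside 1606 and 1299, and the highest T cell sum, 166 CPM beside 104 and 133. The part of these cells in the Ucp2 level was not tested. By mean level per kilobase Ucp2 took place 16 of the family with AZD1152 and place 10 with vehicle.

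Slc25a30, a kidney carrier first named for that organ, had 223, 183, 213 and 214 CPM with AZD1152 and 181, 176 and 209.6 CPM with vehicle (log2 fold change 0.14 ± 0.10, edgeR adjusted p = 0.402). Slc25a14 and Slc25a27, best known from brain, had 5.17 to 6.82 and 1.59 to 3.14 CPM with AZD1152, and 5.60 to 6.05 and 1.45 to 2.50 CPM with vehicle. Ucp3, the muscle form, had 1 to 7 counts per library. Ucp1 of brown fat, which the naming rule does not take in, had 2 counts in 1 vehicle library and 0 in the others, and of the 8 fat markers Adipoq and Lep were at 0 in all libraries. Fabp4, which endothelial cells and macrophages also express, had 26.7 to 42.8 CPM with AZD1152 and 26.2 to 50.6 CPM with vehicle, and the other 5 stayed under 0.3 CPM.

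Among the outer membrane and unassigned members, Slc25a34 (chr4:141618824-141623821, minus strand) had 68.5, 46.6, 44.5 and 54.1 CPM with AZD1152, against 42.4, 38.7 and 39.7 CPM with vehicle. The groups did not overlap (log2 fold change 0.41 ± 0.14, edgeR adjusted p = 0.112). Slc25a46, an outer membrane protein of mitochondrial dynamics, had 52.0 to 60.7 CPM with AZD1152 and 46.8 to 58.2 CPM with vehicle. Slc25a43 had 1.39, 1.06, 1.08 and 1.2 CPM with AZD1152 and 1.4, 1.83 and 1.5 CPM with vehicle, the only tested member whose treated kidneys all lay below the vehicle kidneys (-0.41 ± 0.26, edgeR adjusted p = 0.38). This separation rests on few reads, with counts of 23, 16, 17 and 17 with AZD1152 and 24, 32 and 27 with vehicle. Slc25a35 and Slc25a53 had estimates of 0.02 and -0.26. Slc25a35 shares 1151 exonic bases with Rangrf on the other strand, which had 1 to 6 counts.

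Of the 6 members that were not tested, Slc25a54 had 0 counts in every library, so its level may reach 0.212 CPM in the library of least depth, by counting error alone. Slc25a41 had at most 2 counts in a library. Several weakly measured carriers stand next to well measured ones in the genome. Slc25a54 lies 6.46 kb from Slc25a24 on chromosome 3, Slc25a41 lies 2.06 kb from Slc25a23 on chromosome 17, Ucp3 lies 6.90 kb from Ucp2 on chromosome 7, and Slc25a43 lies 18.4 kb from Slc25a5 on the X chromosome. Slc25a29 and Slc25a47 point away from each other on chromosome 12 with 162 bases between their GENCODE spans. The RefSeq window nearest to the GENCODE start of Slc25a47 lies further on, at chr12:108850879-108851178.

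**Figure D3:**
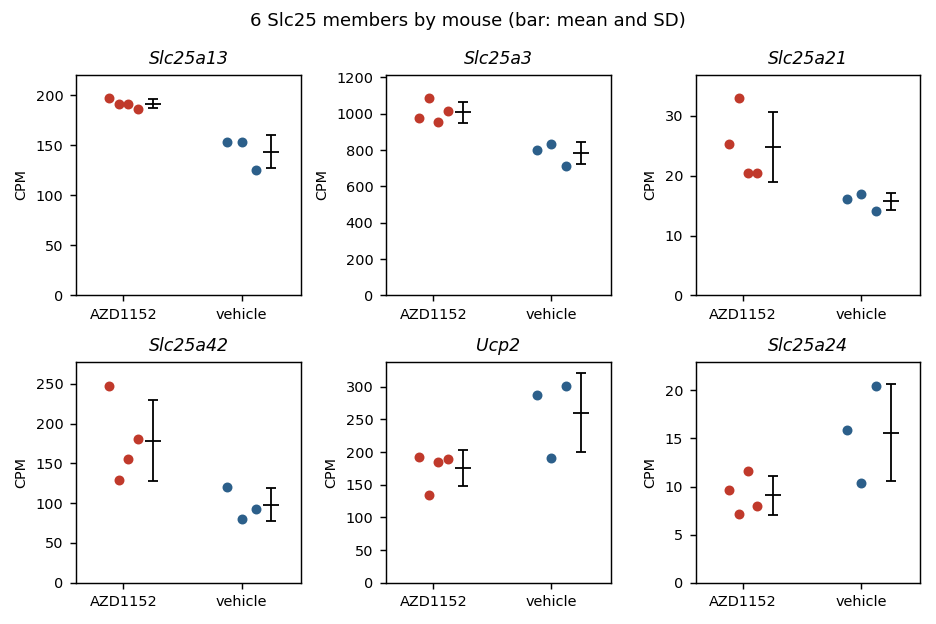
CPM of 6 carriers in each kidney (points), with AZD1152 in red left of vehicle in blue and the mean with its SD as a bar; each y axis starts at 0. The AZD1152 points of Slc25a13, Slc25a3, Slc25a21 and Slc25a42 all lie above the vehicle points, while those of Ucp2 and Slc25a24 lie low with an overlap at vehicle replicate 2.

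Without overlap between the groups, 12 of the 43 tested carriers were higher with AZD1152 (27.9%) and 1 was lower (2.33%), where the same held for 11.2% and 11.6% of all genes tested. These counts rest on TMM-scaled CPM. Per unscaled library total, only Slc25a3, Slc25a13 and Slc25a21 of the 12 stayed apart, and the rest overlapped. Ucp2, Slc25a17 and Slc25a40 were then also lower in every treated kidney. The share of all genes was not counted per unscaled total. At an unadjusted p under 0.05, 13 carriers were higher and 2 were lower in edgeR, with 11.6% and 12.8% of all genes. The members share libraries and are not independent of each other. Across the 7 libraries, vehicle replicate 3 was the lowest for 17 of the 43 members, AZD1152 replicate 2 the highest for 16 and AZD1152 replicate 1 the highest for 12. The TMM factor, by which CPM are divided, was also highest in vehicle replicate 3 (1.113) and lowest in AZD1152 replicate 2 (0.921). AZD1152 replicate 2 also had the largest share of mitochondrial genome transcripts, 11.6% of counts, against 9.41% to 9.76% in the other treated kidneys and 8.03% to 9.0% in vehicle kidneys. The median coefficient of variation of a member was 11.8% among treated and 11.1% among vehicle kidneys.

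**Figure D4:**
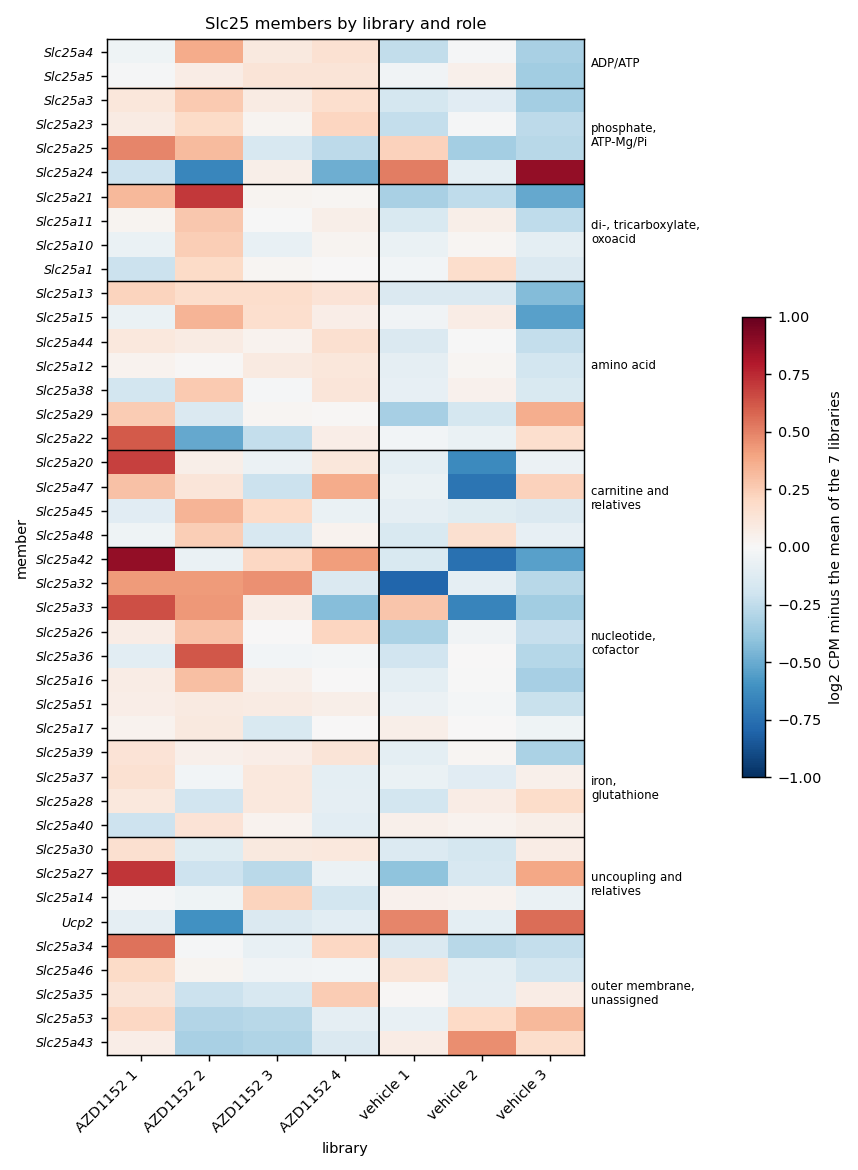
Log2 CPM of tested carriers minus the mean of the 7 libraries, with AZD1152 libraries left of vehicle libraries and members grouped by role. Red is above and blue below the gene's mean; Slc25a42, Slc25a20 and Slc25a34 are reddest in AZD1152 replicate 1, and Slc25a24 and Ucp2 are red in vehicle replicates 1 and 3.

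Other mitochondrial genes were read from lists of the same pathways. Of 25 other mitochondrial membrane transporters 24 were tested, 2 rose and 0 fell in edgeR (1 lower at an unadjusted p under 0.05). Of all genes tested 3.18% were called higher. The median log2 fold change of the list was 0.13 (-0.02 with total-count scaling). Mpc2, a subunit of the pyruvate carrier, had 243, 256, 237 and 252 CPM with AZD1152, against 185, 181 and 168 CPM with vehicle (0.47 ± 0.07, edgeR adjusted p = 0.00934), and it was called in all 17 alternatives. Sfxn2, of the sideroflexin family, rose by 0.47 ± 0.10 (edgeR adjusted p = 0.0221), a call lost without vehicle replicate 1 (0.0759) or 3 (0.0934) and with total-count scaling (0.0518). Mpc1, the other pyruvate carrier subunit, had 0.03 ± 0.12 (edgeR adjusted p = 0.921). In the list for carrier import into the inner membrane, 1 of 15 tested genes rose, Timm13, a chaperone of the intermembrane space (0.29 ± 0.07, edgeR adjusted p = 0.0298), with a median of 0.15. The Timm13 call held without vehicle replicate 2 (edgeR adjusted p = 0.049) and was lost without each of the other libraries (0.0543 to 0.0971), and with total-count scaling its estimate was 0.14 (0.241) and the median of the list 0.

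Of 11 shuttle enzymes and 10 regulators of mitochondrial biogenesis 0 passed in edgeR, with medians of 0.22 and 0.21. At an unadjusted p under 0.05, 5 and 4 were higher (11.6% of all genes) and 0 and 1 lower (12.8% of all genes). DESeq2 called 3 and 1 higher (6.14% of all genes). With total-count scaling edgeR called 1 lower in each list. Got2, the mitochondrial aspartate aminotransferase that works with Slc25a13, had 303, 318, 301 and 307 CPM with AZD1152 and 228, 276 and 216 CPM with vehicle (0.36 ± 0.09, edgeR adjusted p = 0.0502). Of the 91 tested nuclear subunits of oxidative phosphorylation 20 rose, where 3.18% of all genes tested were called higher. The median of this list was 0.28 (0.13 with total-count scaling). Ndufa6, Ndufa9, Ndufc1 and Ndufa13 had the smallest p among the 20 (0.34, 0.40, 0.47 and 0.34, edgeR adjusted p = 0.0167 to 0.0283). The number that rose was 0 without vehicle replicate 3, 1 without AZD1152 replicate 4, 2 without vehicle replicate 1, 4 and 5 without AZD1152 replicates 2 and 3, and 2 with total-count scaling. Of the 12 tested mitochondrial genome transcripts 2 rose, mt-Nd2 and mt-Nd4 (both 0.50; edgeR adjusted p = 0.0371 and 0.0489), with a median of 0.44. Leaving out any of the 7 libraries ended both calls (mt-Nd2 0.0574 to 0.0965, mt-Nd4 0.064 to 0.147), and total-count scaling ended that of mt-Nd4 (0.0562). The median of the carriers was 0.17, and the difference between these lists was not tested. Mpc1, Cpt1a and Got2 were picked after their values were seen.

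**Figure D5:**
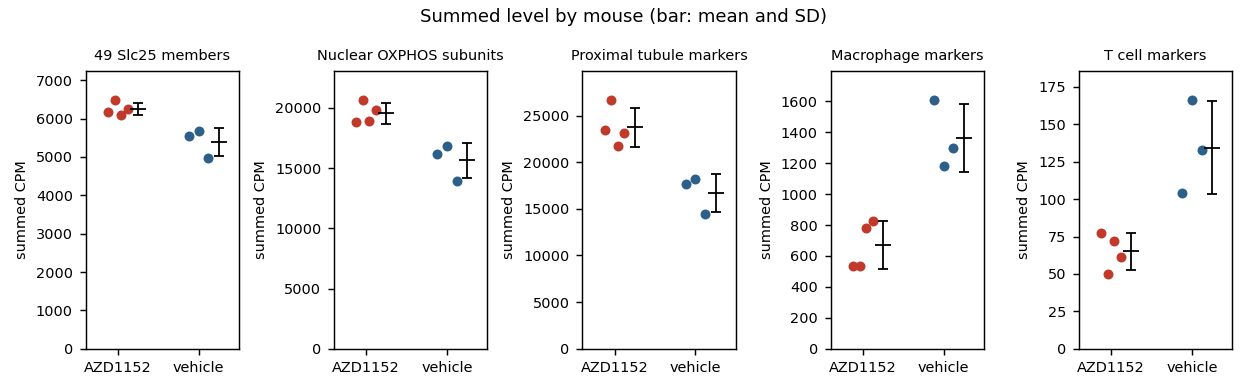
Summed CPM in each kidney of the 49 carriers, nuclear subunits of oxidative phosphorylation, and markers of proximal tubule, macrophages and T cells, with AZD1152 (red) left of vehicle (blue) and mean with SD as a bar; each axis starts at 0. The first 3 sums lie higher and the last 2 lower in AZD1152 kidneys, without overlap.

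The family sum of CPM, not divided by length, and the proximal tubule sum were higher in every treated kidney than in any vehicle kidney. Both also stayed apart per unscaled library total. For the family this was narrow, with 0.592% of counts in the lowest treated kidney and 0.588% in the highest vehicle kidney. The family sum per kilobase did not stay apart per unscaled total, as given above. The collecting duct sum was higher in every treated kidney as TMM-scaled CPM, but its groups overlapped per unscaled total. Sums of loop of Henle, podocyte and endothelial markers overlapped between the groups. In AZD1152 kidneys the family sum was 6182, 6472, 6087 and 6261 CPM beside proximal tubule sums of 23482, 26624, 21695 and 23185 CPM. In vehicle kidneys it was 5533, 5673 and 4974 CPM beside 17620.4, 18147 and 14415 CPM. Vehicle replicate 3 was lowest and AZD1152 replicate 2 highest in both. The part of tissue composition in the carrier values was not tested.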

How the data were processed

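Libraries were made from poly(A) RNA with a TruSeq kit, per the labels' protocols. Reads were aligned with HISAT2 2.0.5 to GRCm38 after base calling with CASAVA, and DESeq and DESeq2 were also named, per the submitters' processing notes. The authors deposited whole-number read counts per Ensembl gene without normalization. Which program counted the reads, and whether by strand, is not given in the sources used here. Overlapping genes on opposite strands cannot be told apart.

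Symbols, gene types, coordinates and exon lengths came from GENCODE mouse release 21 (GRCm38), which named 53360 of 53465 genes, and promoter windows from RefSeq (GRCm38.p6). Genes were filtered with filterByExpr and scaled with TMM (factors 0.921 to 0.972 for AZD1152 and 1.036 to 1.113 for vehicle libraries). They were fitted on group alone by robust quasi-likelihood with edgeR 4.0.16 under R 4.3.3. Tests were two-sided, with Benjamini-Hochberg adjustment over 15774 genes and a threshold of 0.05. Each standard error is the estimate over the root of its F statistic. CPM are counts per TMM-scaled library; 3 counts, the limit for a count of 0, are 0.166 to 0.212 CPM. The labels name no molecular identifiers, so the reads are not independent molecules and the limit covers counting error alone.

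Ratios of 6 paralogue pairs were tested over the 35 ways to choose 4 of 7 libraries. Alternatives were other scaling, filters, DESeq2 1.42.0, limma-voom (limma 3.58.1), each library left out and, added after seeing the data, a fit that was not robust. No libraries were alike within sampling noise (over 21 pairs, chi-square was at least 9.97 times its degrees of freedom), and the series text gives separate mice. Members, lists and pairs were chosen with earlier results of these data known. Named in full were called members, the 5 most abundant per kilobase and those with the next smallest p, to 20; of pathway lists up to 4 called genes. For 1 tested member, part of all counts and sums, no values of its own are reported or drawn here.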

Additional observations from a re-analysis of the deposited data

Results flagged for a closer look

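Within the 4 AZD1152 kidneys 5 of 50 series of values had a library far from the others, where chance alone gives about 5% (Dixon's test). Ucp2 was lowest in AZD1152 replicate 2, at 135 CPM beside 185 to 192 CPM. Slc25a36 was highest in AZD1152 replicate 2, at 223 CPM beside 135 to 143 CPM. The ratio of Slc25a4 to Slc25a5 per kilobase was highest in the same kidney, at 0.254 beside 0.201 to 0.21. Slc25a27 was highest in AZD1152 replicate 1, at 3.14 CPM beside 1.59 to 1.84 CPM. Slc25a32 was lowest in AZD1152 replicate 4, at 2.19 CPM beside 3.25 to 3.32 CPM. Causes were not tested.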

How the results depend on the processing

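Of the 340 values of the 20 carriers named in full under other settings, 302 kept their direction and their side of the threshold, 22 lost a call, 14 gained one and 2 reversed, Slc25a10 and Slc25a12 with total-count scaling (-0.07 and -0.01). The number of carriers called higher, 3, was 1 with total counts, 5 without a filter and 5 in DESeq2, and 0 to 3 when single libraries were left out. The number called lower, 0, was 2 in DESeq2 and 0 to 2 when single libraries were left out. Over all genes 502 were higher and 740 lower; total counts gave 240 and 1445, DESeq2 954 and 1138, and leaving out single libraries 83 to 542 and 190 to 664. Of the 10 pathway genes named as called, 117 of their other values kept the call and 53 did not. The log2 ratio of Slc25a33 to Slc25a36 ran from -0.13 to 0.43 without single libraries. With 6 libraries the permutation test cannot reach 0.05.

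The numbers of the mice pair nothing in the labels. Deviations of same-numbered libraries correlated at -0.29 to 0.21 (3 pairs, 1 over 0.1), and 1 of 3 vehicle libraries correlated best with its own number. With the replicate number as a block on replicates 1 to 3, 2 carriers were higher (Slc25a21, Slc25a42) and 2 lower (Slc25a24, Ucp2), while Slc25a13 (edgeR adjusted p = 0.0581) and Slc25a3 (0.0947) were not called, and over all genes 221 were higher and 367 lower. Depth limits carriers under about 1 CPM.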
